A study of Mus musculus with 4 samples.

Results

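Genes whose products restrain signalling from the T cell receptor were followed in sorted mouse CD4 T cells. There were 10: the ubiquitin ligases Cbl, Cblb and Itch, the diacylglycerol kinases Dgka and Dgkz, the phosphatase-family genes Ubash3a and Ubash3b, the surface receptors Cd5 and Cd6, and the adaptor Sla. They were taken by symbol from a given list, which was chosen from general knowledge with earlier results of these data known. They are 10 of 39179 gene identifiers counted. All cells were OT-II T cells, which carry a transgenic receptor for ovalbumin, and were moved into C57BL/6 hosts that then received nitrophenol-ovalbumin under the skin. On day 8 the inguinal nodes were pooled and their Thy-1.1+ CD44hi cells were sorted by gate. T follicular helper (Tfh) cells, the helpers of germinal centre B cells, were CXCR5+ PD-1+, non-Tfh cells were CXCR5- PD-1-, and each gave 2 libraries. The libraries are numbered T32 and T53 in both groups. Nothing in the labels says how many animals fed a pool, what the numbers mark or whether any animals were shared. The spread behind each p-value is that between these samples and may be technical. The cells carried the same receptor transgene and were sorted as CD44hi, the state of activated cells, so neither group stands for resting T cells.

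Engagement of the T cell receptor activates the kinases Lck and Zap70, which assemble a complex around Lat that makes the lipid messenger diacylglycerol and so switches on Ras and protein kinase C. Most of the genes described here act on a step of that chain. Cbl ligases tag receptor chains and kinases with ubiquitin, and Ubash3 proteins act on Zap70. Diacylglycerol kinases convert the lipid messenger to phosphatidic acid. Cd5 and Cd6 recruit inhibitory partners at the contact with the presenting cell. Several of the genes described here, among them Cblb, Dgka and Itch, are known from T cell anergy, a state of muted receptor response.

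The total gene count ran from 5725358 (Tfh T53) to 13360563 (non-Tfh T32), so that a single read pair stood for 0.0746 to 0.175 CPM. CPM are counts per library size, here after edgeR's TMM normalization. The sorting genes followed the gates, with Cxcr5 at 713 to 748 CPM in Tfh and 52.6 to 56.0 in non-Tfh libraries, and Pdcd1 at 537 to 577 against 53.5 to 57.0. T cell markers were present in every library (10 of 10 with counts, 7728 to 9313 CPM summed). Of 10 B cell markers, 5 and 6 had a count in the Tfh libraries and 6 and 10 in the non-Tfh libraries, and their summed level was 142 to 145 CPM in Tfh and 11.9 to 20.7 in non-Tfh libraries. Of this list 2 members were called higher in Tfh cells by edgeR: Cd22, which alone gave 135 to 140 CPM there, and Pax5, at 5.12 and 5.25 CPM in Tfh against 0 and 0.45 in non-Tfh libraries (adjusted p = 0.0237). Blk was at 0 in both Tfh libraries and Ms4a1, Cd79a and Cd79b stayed below 1 CPM there. The part of the B cell list in the results was not tested. The macrophage and monocyte list summed to 2.61 to 7.54 CPM, the dendritic cell list to 2.77 to 7.43 and the granulocyte list to at most 0.113, with S100a9, Ly6g, Mpo, Elane, Camp and Ltf at 0 throughout. The NK cell list summed to 45.2 and 57.9 CPM in Tfh against 14.9 and 22.5 in non-Tfh libraries, nearly all of it Klrb1c, with Ncr1 and Klra8 at 0 throughout. Klrb1c was called higher in Tfh cells (adjusted p = 0.0154 by edgeR). Eomes was called lower (adjusted p = 0.0390 by edgeR), at 0.168 and 0.350 CPM in Tfh against 2.01 and 1.46 in non-Tfh libraries. The CD8 T cell list summed to 3.60 to 6.21 CPM, the plasma cell list to 74.9 to 90.3, of which Xbp1 was 74.0 to 89.3, and the stromal and endothelial list to 212 to 237, of which Pecam1 was 211 to 236. Mitochondrial genes held 22.2 and 20.4% of counts in the Tfh libraries and 19.6 and 17.2% in the non-Tfh libraries, and the part of this difference in the results was not tested. In bulk libraries, fewer cells of a type and less RNA per cell cannot be told apart.

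All 10 genes passed the filter on low counts, the lowest count of any in a library being 610. The comparison asked which of these brakes differ between Tfh cells and activated cells with the same receptor transgene outside the Tfh gate. By edgeR's quasi-likelihood test with Benjamini-Hochberg adjustment over 11702 genes, 1 of the 10 was higher in Tfh cells (Ubash3b) and 0 were lower (at an unadjusted p under 0.05, 2 were higher and 2 lower), where 8.49% of all tested genes were called either way, 4.47% higher and 4.02% lower. At an unadjusted p under 0.05 there were 4 of 10 (Ubash3b, Dgka, Dgkz and Cd5), against 22.0% of all tested genes. The median log2 fold change was 0.071 over the 10 and -0.0053 over all tested genes, and the median absolute change 0.25 against 0.22. The groups did not overlap for 7 of the 10, against 52.2% of tested genes. Summed over the 10 genes, the level was 2913 and 3038 CPM in the Tfh libraries. It was 2785 and 3125 CPM in the non-Tfh libraries, so the sums of both groups overlapped. In these sums Dgka (mean 503 CPM in Tfh, 804 in non-Tfh) and Dgkz (919 and 623) partly offset each other.

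**Figure D1:**
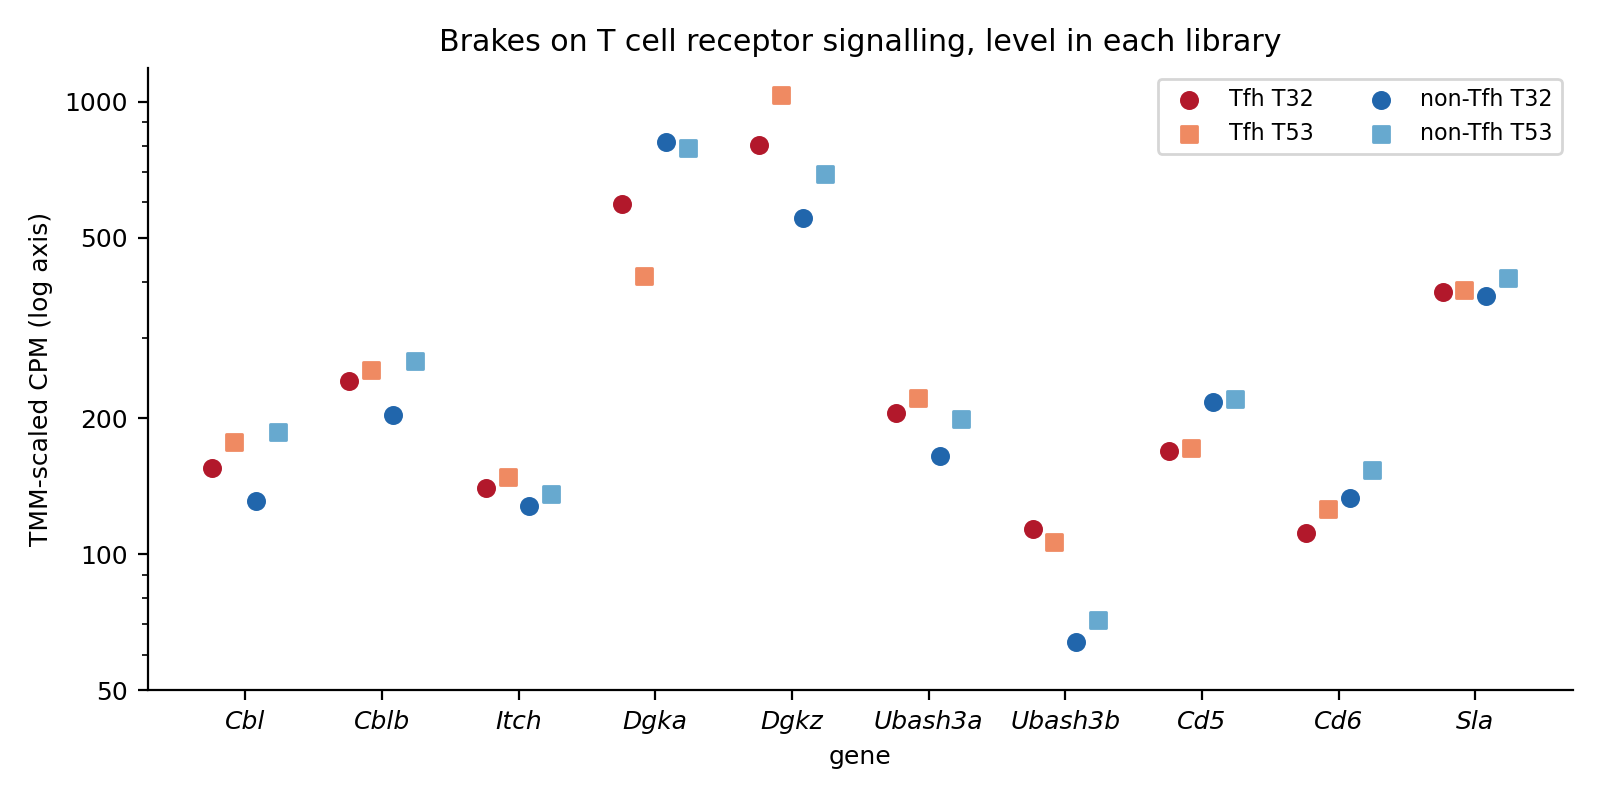
Level of each of the 10 genes in TMM-scaled CPM (vertical log axis) in the 4 libraries, Tfh in red tones and non-Tfh in blue tones, circles for T32 and squares for T53. Ubash3b was at 107 to 114 CPM in Tfh and 63.9 to 71.6 CPM in non-Tfh libraries, and Dgka and Dgkz lie apart in opposite directions.

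Ubash3b, also called Sts-1, is the catalytically stronger phosphatase of its pair and removes activating phosphates from Zap70. The gene (ENSMUSG00000032020) lies on the minus strand of GRCm38 chromosome 9, 41011098 to 41161697. It measured 114 and 107 CPM in the Tfh libraries T32 and T53 and 63.9 and 71.6 CPM in the non-Tfh libraries. Both Tfh libraries lay above both non-Tfh libraries. The mean was 110 CPM ± 5.06 in Tfh and 67.7 ± 5.43 in non-Tfh cells (SD, n = 2 per group), or 1.63 times as much (log2 fold change of 0.71 with an SE of 0.12, adjusted p = 0.0189 by edgeR). Of all tested genes, 15.5% had a larger absolute change. The call was lost without Tfh T32 (log2 fold change 0.66, adjusted p = 0.0816) and without Tfh T53 (0.76, adjusted p = 0.0538).

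Its relative Ubash3a (Sts-2, ENSMUSG00000042345, chromosome 17, 31207873 to 31246892) has little phosphatase activity and binds ubiquitin and Cbl. It measured 205 and 222 CPM in the Tfh libraries T32 and T53 and 165 and 199 CPM in the non-Tfh libraries. The Tfh libraries were again higher without overlap, by a margin small beside the gap between the non-Tfh libraries. The log2 fold change of 0.23 (95% interval -0.095 to 0.56) did not pass (adjusted p = 0.397, edgeR).

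The diacylglycerol kinases were the most abundant of the 10 genes and lay in opposite directions. Dgka (ENSMUSG00000025357, minus strand of chromosome 10, 128720134 to 128744855), a calcium-responsive enzyme known from anergy, measured 594 CPM in library T32 and 413 CPM in library T53 of the Tfh group, against 816 and 791 CPM in the non-Tfh libraries. Both Tfh libraries were lower, and Tfh T53 was the lowest by far. Dgkz (ENSMUSG00000040479, minus strand of chromosome 2, 91932824 to 91975864), held to be the main limiter of diacylglycerol at the receptor contact, measured 804, 1035, 554 and 691 CPM in the same order. Here both Tfh libraries were higher, and Tfh T53 was the highest.

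Neither kinase passed the test. Dgka had a log2 fold change of -0.67 (95% interval -1.14 to -0.21, adjusted p = 0.0922 by edgeR), with 503 CPM ± 128 in Tfh and 804 ± 17.9 in non-Tfh cells (SD, n = 2 per group). Dgkz had a log2 fold change of 0.56 (95% interval 0.11 to 1.01, adjusted p = 0.135 by edgeR), with 919 ± 163 against 623 ± 97.0. The SD of the Tfh libraries was thus 25.5% of the mean for Dgka and 17.8% for Dgkz. Both passed with DESeq2 (adjusted p = 0.00697 for Dgka and 0.0370 for Dgkz) and with edgeR without a low-count filter (0.000497 and 0.00878). Without Tfh T32, Dgka passed at a log2 fold change of -0.96 (adjusted p = 0.0324), and without Tfh T53 it was -0.42 (0.386). Dgkz was at 0.38 without Tfh T53 (adjusted p = 0.502) and at 0.74 without Tfh T32 (0.0983).

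The balance of both kinases can be read within a library, free of scaling between libraries. Of the counts on Dgka and Dgkz together, Dgka took 42.5% in the Tfh library T32 (Clopper-Pearson 95% interval from 41.7 to 43.2%) and 28.5% in T53 (from 27.5 to 29.5%). In the non-Tfh libraries it took 59.6% (from 58.9 to 60.3%) and 53.4% (from 52.5 to 54.2%). These intervals cover counting error only. Per kilobase of exon, Dgka stood at 0.973 and 0.525 of Dgkz in the Tfh libraries and at 1.94 and 1.51 in the non-Tfh libraries. Dgka was thus the lesser kinase in both Tfh libraries and the greater in both non-Tfh libraries. The log2 ratio differed by -1.26 between the groups, a 2.39-fold shift (-0.48 ± 0.63 in Tfh, 0.77 ± 0.26 in non-Tfh, SD, n = 2, two-sided exact permutation p = 0.333, the smallest that 2 against 2 allows, adjusted p = 0.667 over 4 pairs). The sum of both genes per kilobase was 253 and 252 CPM per kb in Tfh against 260 and 276 in non-Tfh libraries.

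The stretches upstream of the start sites are shown for the called gene and for both kinases, whose levels lay in opposite directions. They are 250 bases before a RefSeq start (build GRCm38.p6, minus strand in each case), printed 5′ to 3′, for the most upstream start that lies in a GENCODE transcript of the gene. Capitals mark matches to TGGAAA, a core sequence bound by NFAT factors, on either strand.
Ubash3b, chr9:41158063-41158312: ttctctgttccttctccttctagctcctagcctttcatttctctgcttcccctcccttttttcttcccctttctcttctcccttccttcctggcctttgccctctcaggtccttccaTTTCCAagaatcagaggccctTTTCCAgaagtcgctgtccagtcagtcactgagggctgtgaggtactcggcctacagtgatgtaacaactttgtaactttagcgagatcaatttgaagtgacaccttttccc
Dgka, chr10:128744077-128744326: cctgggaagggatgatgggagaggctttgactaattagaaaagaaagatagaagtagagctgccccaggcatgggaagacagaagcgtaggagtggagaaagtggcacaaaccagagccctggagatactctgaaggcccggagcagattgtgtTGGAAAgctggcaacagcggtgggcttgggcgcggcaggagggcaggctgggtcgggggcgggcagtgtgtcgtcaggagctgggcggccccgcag
Dgkz, chr2:91963564-91963813: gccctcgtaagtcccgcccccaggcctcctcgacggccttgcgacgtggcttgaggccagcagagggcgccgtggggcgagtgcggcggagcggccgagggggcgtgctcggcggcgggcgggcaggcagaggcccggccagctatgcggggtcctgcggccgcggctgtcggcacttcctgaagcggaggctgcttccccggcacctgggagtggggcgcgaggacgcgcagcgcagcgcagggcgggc

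The windows searched ran from 250 bases before to 50 after each RefSeq start, and 7 of the 10 genes matched at least 1 of them, 12 windows in all. TGGAAA occurred in the windows shown for Ubash3b (2 matches) and Dgka (1 match) and not in that of Dgkz, where 21.4% of 32851 promoter windows of this length hold it on either strand. It also occurred in other windows of Dgka and Ubash3b and in that of Cd5, but in none of Dgkz, Cbl, Cblb or Ubash3a. The most upstream Dgka window, not shown, held 2 matches. The EGR sequence GCGTGGGCG, present in 0.612% of all windows, and the FOXO sequence GTAAACA, present in 3.65%, occurred in none of the windows of the matched genes. Over all 300 bases searched, of which the first 250 are printed, these windows hold 50% G and C for Ubash3b, 62.3% for Dgka and 77.7% for Dgkz. The counts are per gene and do not show which start was used.

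Cbl, Cblb and Itch did not pass the test, and their values in both groups were close. Cblb (ENSMUSG00000022637, chromosome 16, 52031225 to 52208048), the ligase that makes T cell activation depend on costimulation, measured 242 and 255 CPM in the Tfh libraries T32 and T53 and 203 and 268 CPM in the non-Tfh libraries. The non-Tfh libraries spanned the Tfh values. Cbl (ENSMUSG00000034342, chromosome 9, 44142976 to 44234049), which takes part in turnover of the receptor, measured 155 and 177 CPM against 131 and 186, and overlapped in the same way. The 95% intervals of the log2 fold change, -0.30 to 0.46 for Cblb and -0.39 to 0.52 for Cbl each include changes in either direction. The ratio of Cblb to Cbl per kilobase was 1.84 and 1.70 in Tfh and 1.82 and 1.69 in non-Tfh libraries, higher in T32 than in T53 in both groups (difference in log2 ratio 0.0060, two-sided exact permutation p = 0.667).

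Itch (ENSMUSG00000027598, chromosome 2, 155133509 to 155226855), a ligase of another family that targets JunB and is known to be needed for Tfh cells in mice, measured 140 and 148 CPM in Tfh and 128 and 136 CPM in non-Tfh libraries. The Tfh libraries were higher without overlap, but by less than the test could separate (log2 fold change 0.13, 95% interval -0.14 to 0.39, adjusted p = 0.592, edgeR). Itch had nearly the same difference within T32 (0.13) as within T53 (0.13) on the log2 scale, while that of Cbl was 0.24 within T32 and -0.073 within T53.

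Cd5 and Cd6, neighbouring genes of related scavenger-type receptors on chromosome 19, both measured less in Tfh libraries, without a call. Cd5 (ENSMUSG00000024669, 10717116 to 10739002), whose level on T cells is set by receptor signal strength, measured 169 and 172 CPM in the Tfh libraries T32 and T53 and 217 and 220 CPM in the non-Tfh libraries. The groups did not overlap, and the libraries within each group were close together. The log2 fold change was -0.36 (95% interval -0.62 to -0.10, adjusted p = 0.106, edgeR), and -0.36 within T32 as within T53. Cd6 (ENSMUSG00000024670, 10789341 to 10830058), which binds Alcam on the presenting cell, measured 112 and 126 CPM in Tfh and 133 and 154 CPM in non-Tfh libraries. Its groups did not overlap either (log2 fold change -0.27, 95% interval -0.59 to 0.043, adjusted p = 0.296, edgeR). The ratio of Cd5 to Cd6 per kilobase overlapped between groups, at 2.44 and 2.20 in Tfh and 2.64 and 2.32 in non-Tfh libraries. The cells were sorted by Thy-1.1, a form of the Thy1 product, while the counts are per gene and do not separate forms. Thy1, another T cell surface gene, was lower in Tfh cells at 85.6 and 93.6 CPM against 229 and 220. It was the only call among the 10 T cell markers. Of the others, only Cd247 had a negative log2 fold change (-0.18), while those of Cd2 (0.37), Cd3d (0.32) and the rest were positive.

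Sla (ENSMUSG00000022372, minus strand of chromosome 15, 66780819 to 66831829), an adaptor that brings Cbl to the receptor's zeta chain, measured 379 and 384 CPM in the Tfh libraries T32 and T53 and 373 and 409 CPM in the non-Tfh libraries. The non-Tfh libraries spanned the Tfh values. Its log2 fold change of -0.034 was the smallest of the 10 in size, with a 95% interval from -0.33 to 0.26, and 91.2% of tested genes had a larger absolute change. Sla lies inside the thyroglobulin gene Tg on the opposite strand with no shared exon bases, and Tg had 9 to 34 counts per library. Dgka shares 105 exon bases with Pmel, which had at most 3 counts, and Dgkz shares 222 with Gm9821, which had at most 1, each on the opposite strand. How the counting treated strand is not given in the sources used here, so reads in those shared bases could belong to either gene.

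**Figure D2:**
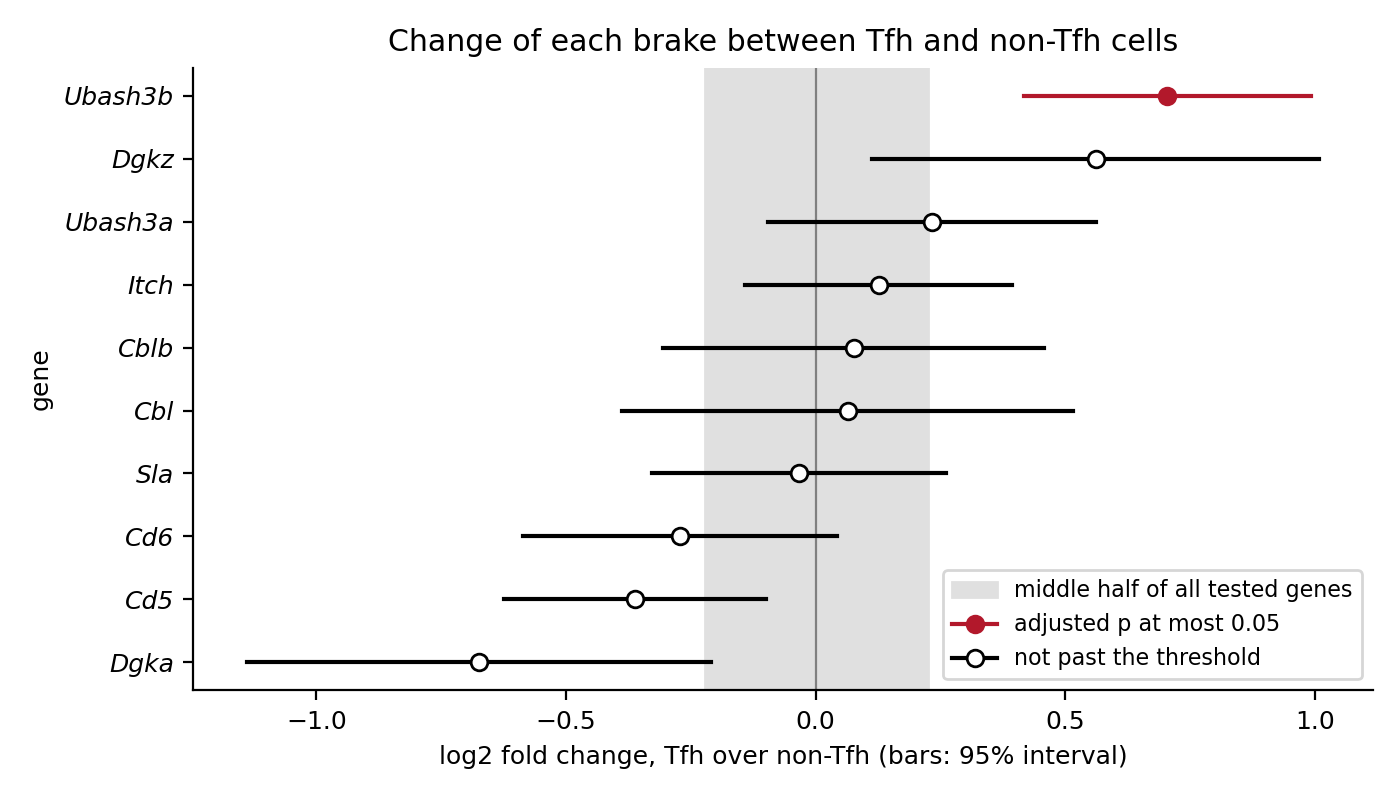
Log2 fold change of each gene, Tfh over non-Tfh (horizontal axis), with its 95% interval, the called gene in red, and the span from the lower to the upper quartile of all tested genes (-0.22 to 0.23) in grey. Only the interval of Ubash3b lies wholly to the right of the grey span, and the intervals of Dgkz, Dgka and Cd5 exclude 0 without passing the adjusted threshold.

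Levels of different genes were compared as CPM per kilobase of annotated exon. In Tfh cells the order ran from Dgkz (147 ± 26.1) and Dgka (106 ± 26.9) over Sla (41.6 ± 0.415), Cd5 (34.5 ± 0.399), Cblb (23.7 ± 0.903) and Ubash3a (19.0 ± 1.02) to Ubash3b (15.1 ± 0.691), Cd6 (14.9 ± 1.27), Itch (14.8 ± 0.61) and Cbl (13.5 ± 1.26; mean ± SD in CPM per kb, n = 2). The ranges of Ubash3b and Cd6 overlapped, as did those of Cd6 and Itch, and those of the other neighbours did not. In non-Tfh cells the order was Dgka (169 ± 3.76), Dgkz (99.3 ± 15.5), Cd5 (44.4 ± 0.365), Sla (42.5 ± 2.78), Cblb (22.5 ± 4.35), Cd6 (18.0 ± 1.82), Ubash3a (16.2 ± 2.16), Itch (13.6 ± 0.577), Cbl (12.9 ± 3.15) and Ubash3b (9.25 ± 0.741). Here Cd5 overlapped with Sla, Cd6 with Ubash3a, and Itch with Cbl. Ubash3b was thus last of the 10 in non-Tfh cells and level with Cd6 and Itch in Tfh cells. Both kinases stood at the 97.9th percentile or higher of tested genes per kilobase in each group, while Ubash3b stood at percentile 61.4 in non-Tfh and 76.4 in Tfh cells. Exon lengths are of all annotated exons, so a gene whose cells use a short isoform has a higher true level per length.

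**Figure D3:**
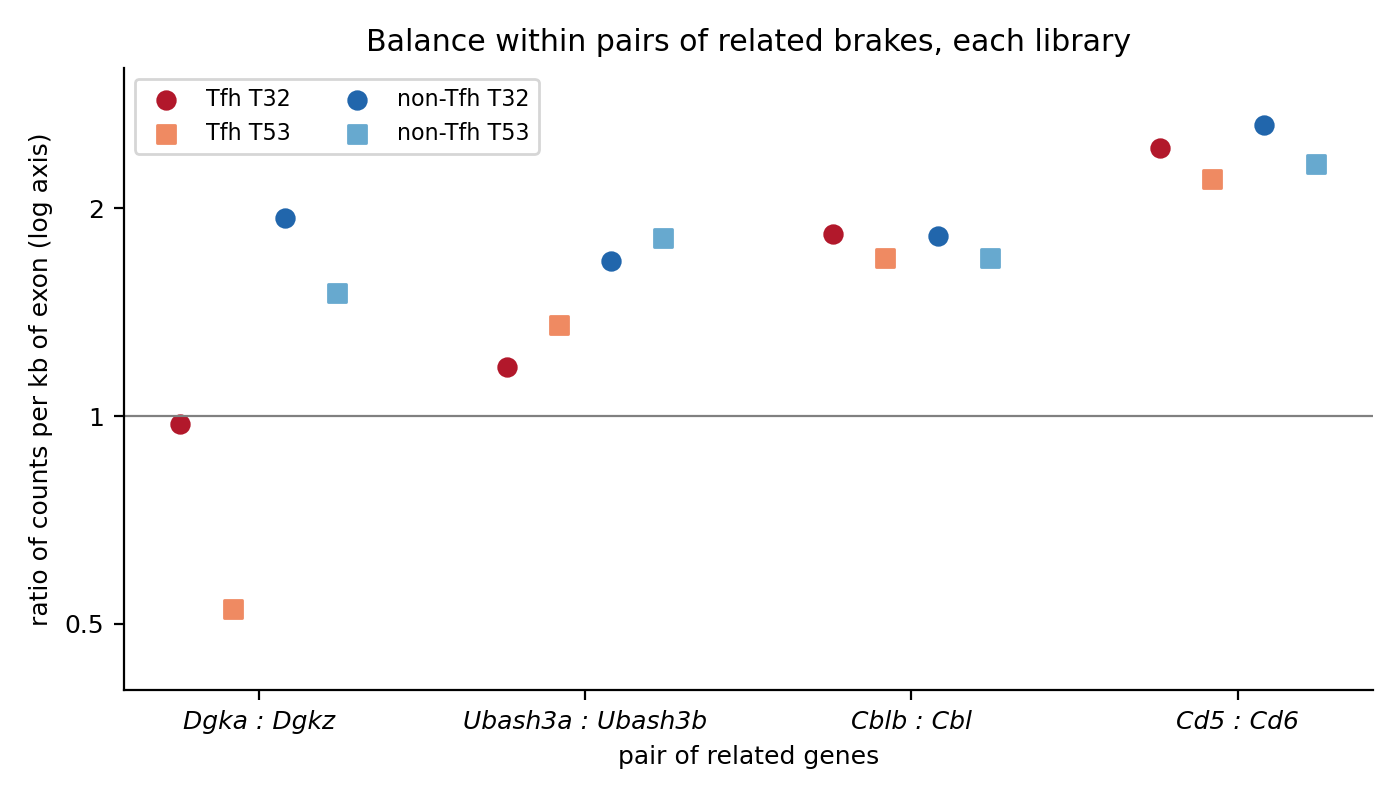
Ratio of counts per kilobase of exon (vertical log axis) within pairs of related genes in each of the 4 libraries, colours and symbols by group and number. The Dgka to Dgkz ratio was 0.525 to 0.973 in Tfh and 1.51 to 1.94 in non-Tfh libraries, while Cblb to Cbl lay between 1.69 and 1.84 in all 4.

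The Ubash3 pair shifted less than the kinases. Ubash3a stood at 1.18 and 1.35 times Ubash3b per kilobase in the Tfh libraries and at 1.68 and 1.81 in the non-Tfh libraries. The groups did not overlap (difference in log2 ratio -0.47, two-sided exact permutation p = 0.333, the smallest possible). The sum of both genes was 33.8 and 34.3 CPM per kb in Tfh against 23.4 and 27.5 in non-Tfh libraries.

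Relatives of these genes gave 1 call. Of 17 family relatives 12 were tested, and 0 rose and 1 fell (0 and 2 at an unadjusted p under 0.05, 8.33% called, against 8.49% of all genes; median log2 fold change -0.16). The member that fell was Nedd4, a ligase of Itch's family, at 2.18 and 1.92 CPM in Tfh against 9.69 and 13.1 in non-Tfh libraries (log2 fold change -2.44 ± 0.30 SE, adjusted p = 0.00675 by edgeR). The other diacylglycerol kinases with counts included Dgkd at 202 against 221 CPM, with an adjusted p of 0.681 by edgeR. Of 8 partners of the brakes 0 passed with edgeR, DESeq2 or limma-voom (median -0.070), and 1 was higher and 0 lower at an unadjusted p under 0.05 in edgeR. Among them Ndfip1, an activator of Itch, measured 134 and 124 CPM in Tfh against 99.0 and 107 in non-Tfh libraries (adjusted p = 0.149, edgeR), and Sh3kbp1, a Cbl-binding adaptor, measured 421 and 427 against 426 and 475.

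The receptor and the proximal machinery on which the brakes act moved both ways. Of 29 tested members 3 rose and 4 fell, 24.1% against 8.49% of all genes, with a median log2 fold change of 0.13. Rasgrp1 and Prkcq also stand in the list of diacylglycerol effectors, as Egr2 and Egr3 do in both the anergy and the response list below. Malt1, a scaffold and protease of the NF-kappaB branch, rose to 871 and 934 CPM in the Tfh libraries from 279 and 320 CPM (log2 fold change 1.59 ± 0.14 SE, adjusted p = 0.00250 by edgeR). The kinase Fyn rose from 386 and 409 to 827 and 878 CPM, and Zap70, the substrate of Ubash3b, rose from 224 and 229 to 405 and 455 CPM (log2 fold change 0.93 ± 0.12, adjusted p = 0.00926, edgeR). Zap70 and Ubash3b were therefore both called higher in Tfh cells. Grap2, the adaptor Gads that links Lcp2 to Lat, fell from 156 and 177 to 78.0 and 70.3 CPM. Without Tfh T53 the list had 3 higher and 1 lower.

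Diacylglycerol is the substrate of Dgka and Dgkz. The list of its effectors also includes relatives of such effectors. Of 12 tested members, 1 rose and 4 fell (41.7% called, against 8.49% of all genes, median log2 fold change -0.037). At an unadjusted p under 0.05, 3 were higher and 5 lower by edgeR, and 6 of the 12 log2 fold changes were positive. Rasgrp2, a Rap1 activator, fell from 255 and 232 CPM in non-Tfh to 42.4 and 20.8 CPM in Tfh libraries (log2 fold change -2.91 ± 0.33 SE, adjusted p = 0.0106 by edgeR). Rasgrp1, the Ras activator that diacylglycerol recruits in T cells, fell from 352 and 408 to 219 and 239 CPM (-0.73 ± 0.13, adjusted p = 0.0239, edgeR). The kinases Prkd3 and Prkd2 fell 2.18-fold and 1.47-fold, Prkd2 being named after its values were seen as the remaining call. Prkca, a protein kinase C, rose from 196 and 217 to 310 and 355 CPM. These calls were less steady than those of Malt1 or Zap70. Rasgrp2 was lost without either non-Tfh library (adjusted p = 0.121 without T32 and 0.150 without T53), Rasgrp1 without either Tfh library (0.107 without T32, 0.0710 without T53) or non-Tfh T53 (0.0550), Prkd3 without Tfh T32 (0.0670), and Prkca without Tfh T53 (0.125) or non-Tfh T32 (0.0861), all by edgeR. The balance of rises and falls in the list also differed between these fits, and not all of them had more falls than rises.

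Other intracellular brakes on the same chain also moved both ways, with 3 of 21 up and 4 down (33.3% called, against 8.49% of all genes, median log2 fold change 0.071). Rasa3, a Ras and Rap inhibitor, fell from 364 and 300 CPM in non-Tfh to 139 and 99.9 CPM in Tfh libraries (log2 fold change -1.47 ± 0.19 SE, adjusted p = 0.00922 by edgeR). Pag1, the membrane anchor of the kinase Csk, fell from 228 and 273 to 112 and 134 CPM, and the adaptor Dok2 fell 1.88-fold. Lax1, a Lat-like inhibitory adaptor, rose from 135 and 164 to 270 and 279 CPM. Dok2 lost its call without Tfh T53 (adjusted p = 0.124) and without non-Tfh T32 (0.0694), both by edgeR. The list held 4 calls without Tfh T32 and 3 without Tfh T53.

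Of 12 anergy genes other than the brakes, 4 rose and 1 fell (41.7% called, against 8.49% of all genes, median log2 fold change 0.50). At an unadjusted p under 0.05, 7 were higher and 4 lower by edgeR. Rnf128, the ligase Grail, rose from 1.34 and 1.80 CPM in non-Tfh to 7.89 and 12.4 CPM in Tfh libraries (log2 fold change 2.68 ± 0.37 SE, adjusted p = 0.00979 by edgeR). Lag3, an inhibitory receptor, rose 3.90-fold, Izumo1r, the folate receptor 4 gene, rose 1.74-fold, and Tob1, an antiproliferative factor, fell 2.59-fold. Egr2, a factor that drives several anergy genes, rose from 46.0 and 48.1 to 87.7 and 68.6 CPM (log2 fold change 0.74 ± 0.15, adjusted p = 0.0349, edgeR), while its relative Egr3 measured 13.5 CPM in Tfh and 21.8 in non-Tfh cells (adjusted p = 0.202, edgeR). Without 1 library the calls of Lag3 (Tfh T32, adjusted p = 0.0667, and Tfh T53, 0.108), Tob1 (Tfh T32, 0.0571, and Tfh T53, 0.0932) and Egr2 (Tfh T32, 0.154, and non-Tfh T32, 0.0776) were lost by edgeR. Izumo1r lost its call without Tfh T32 (0.152) or either of the non-Tfh libraries (0.114 and 0.122), and with limma-voom (0.0632), RLE scaling (0.0504), a filter at 5 CPM (0.0536), dispersions without the robust option (0.0525) and without the most abundant genes (0.0502). In this list 5 rose and 3 fell with DESeq2, and 5 rose and 4 fell with edgeR without a low-count filter. The balance also differed between fits with a library left out, and not all of them had more rises than falls.

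Genes induced by receptor signalling had 2 of 17 tested members up and 0 down by edgeR (2 and 5 at an unadjusted p under 0.05), with a median log2 fold change of -0.32. They were Egr2 and Nfatc1, which rose from 381 and 485 CPM in non-Tfh to 850 and 1042 CPM in Tfh libraries (log2 fold change 1.13 ± 0.18 SE, adjusted p = 0.0160 by edgeR). The list stood at 11.8% called against 8.49% of all genes. DESeq2 called 2 up and 3 down, and 3 rose and 6 fell with edgeR without a low-count filter. Without non-Tfh T32 there were 1 up and 3 down.

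**Figure D4:**
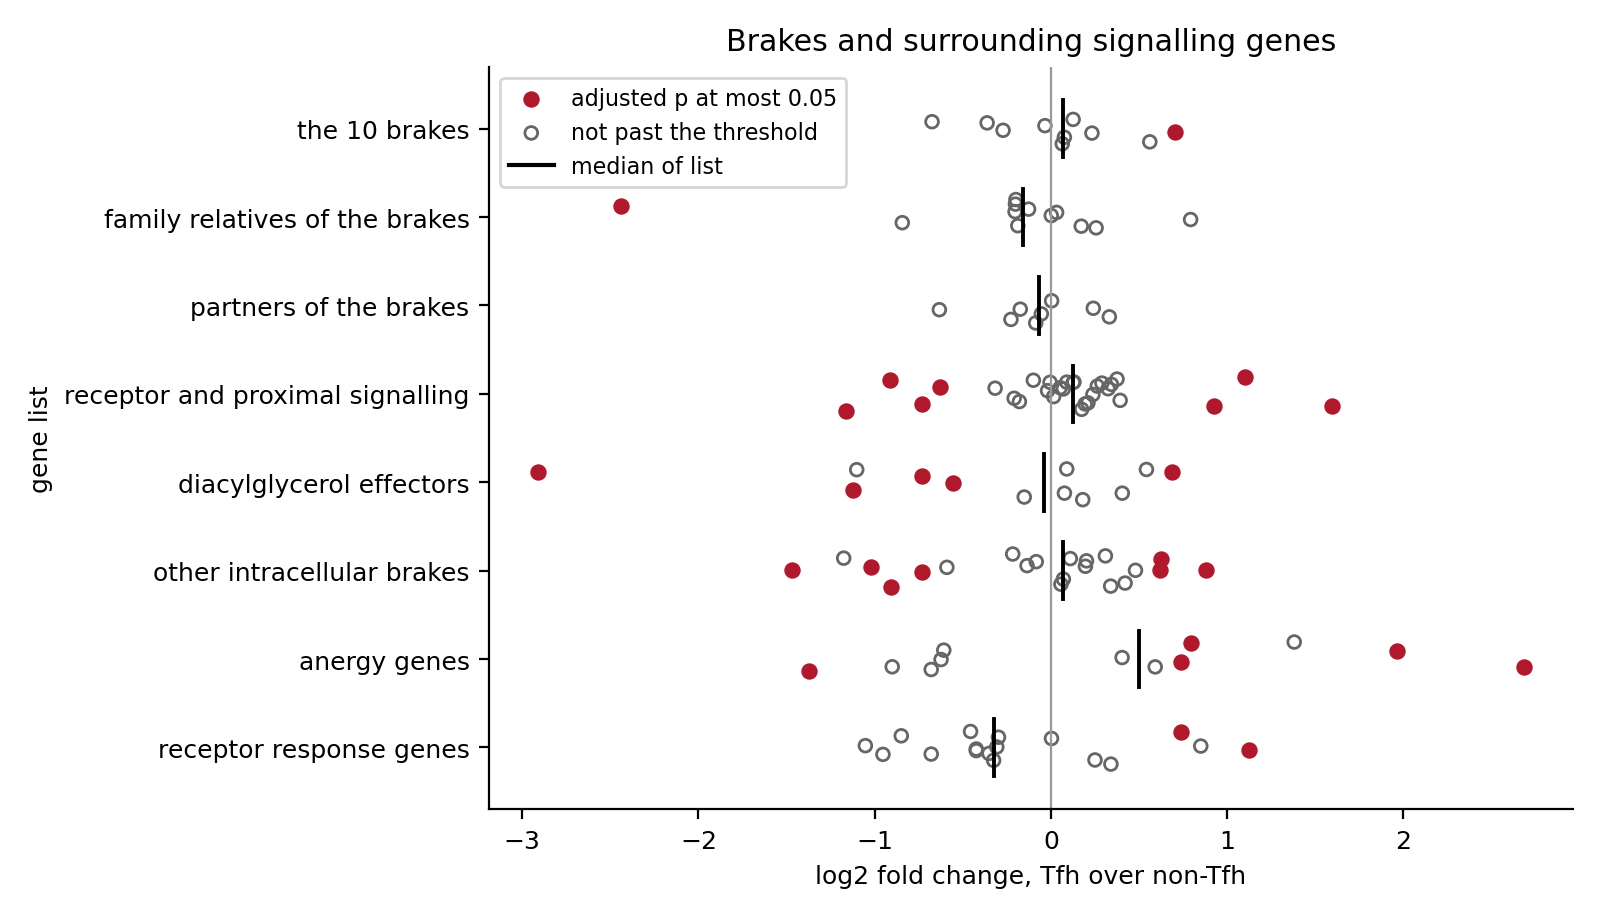
Log2 fold change, Tfh over non-Tfh (horizontal axis), of the tested members of each list, filled red where the adjusted p was at most 0.05, with a bar at the median of each list. The 10 brakes lie between -0.67 and 0.71 with 1 call. Rasgrp2 in the diacylglycerol list lies at -2.91 and Rnf128 in the anergy list at 2.68.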

How the data were processed

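RNA of 4 sorted samples was sequenced in read pairs from stranded total RNA libraries, per the labels' protocols. The authors deposited unnormalized counts for each Ensembl gene. GRCm38 (mm10), TopHat2, Bowtie2 and HTSeq appear in the submitters' processing notes. Versions, annotation release and strand setting are not given in the sources used here. GENCODE M21 (GRCm38) gave symbols, positions and exon lengths for 37693 of 39179 identifiers, and the unmatched ones held 0.209 to 0.228% of counts. Promoter sequences are RefSeq's.

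Counts were tested in R 4.3.3 with edgeR 4.0.16 (filterByExpr, TMM, robust quasi-likelihood, group alone, 2 residual degrees of freedom, two-sided), with Benjamini-Hochberg adjustment over 11702 genes at 0.05. The SE of a log2 fold change is its size divided by the root of F. Intervals at 95% use that SE. Ratios within gene pairs were compared by exact permutation. Alternatives used DESeq2 1.42.0, limma 3.58.1 and other scalings, filters and libraries. The code was tested on simulated data. Figures used matplotlib 3.10.9.

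The 10 genes and the surrounding lists were chosen from general knowledge with earlier results of these data known. Of each list, up to 4 called genes with at least 5 CPM were named by size of change, and where there was no call the 2 with the highest CPM. Dgkd, Egr3 and Prkd2 were named after their values were seen, and Thy1 was also named outside this rule.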

Additional observations from a re-analysis of the deposited data

How the results depend on the processing

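Of 11702 genes 994 were called, and the counts that differed by more than 1.5 times were 1986 without a low-count filter and 2116 with a replicate block, with 545 to 887 when a library was left out. Of the 10 brakes 1 was called, and 3 with DESeq2, 3 without a low-count filter (Ubash3b, Dgka and Dgkz in both), 4 with a replicate block (these and Cd5) and 0 to 1 with a library left out. Ubash3b alone was called under the other 6 alternatives that keep all libraries. The library numbers were not taken to pair samples, since no label says what they mark. T32 and T53 deviated together in both groups (correlation 0.37 across genes and 0.67 over the 10 brakes), which is a hint from the data. With the block the adjusted p was 0.0158 for Dgka, 0.00769 for Dgkz, 0.024 for Cd5 and 0.049 for Ndfip1. The direction changed for Cbl without Tfh T53 (-0.018) and without non-Tfh T32 (-0.17), where leaving out single libraries gave -0.17 to 0.34, for Cblb without non-Tfh T32 (-0.11, range -0.11 to 0.29) and for Sla without non-Tfh T53 (0.034, range -0.097 to 0.034), none of them called. The other 126 of 130 alternative values of the brakes kept their direction. The cause of these changes was not tested. With 2 libraries per group no permutation p can fall below 0.333.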
